A study of Mus musculus with 12 samples.

Results

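The immunoglobulin chain genes were followed in LSK cells, the lineage-negative, Sca1+, Kit+ fraction of mouse bone marrow that holds blood stem cells and early progenitors. The set comprised Jchain and every gene whose symbol begins with Igh, Igk, Iglv, Iglj or Iglc in the array annotation, without the helicase gene Ighmbp2. It held 25 of 23981 gene symbols, on 37 of 41345 probe sets, with 1 probe set for the J chain, 16 for the heavy chain, 18 for the kappa chain, 1 for the lambda chain and 1 that named heavy and kappa genes together. Of these, 32 named 1 gene and 5 named several, and all 37 entered the fit because no filter on low signals was applied. The set was selected on earlier results of the same arrays, in which the low Jchain signal of mutant mock cells and the levels of antibody segments had been singled out. The differences between groups below are therefore a description of the members and not independent support for a direction.

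The cells were sorted from C57BL/6 mice that were wild type (Mll5+/+) or lacked Mll5 (Mll5-/-), a gene also called Kmt2e. Mice of each genotype either went untreated (mock) or received N-acetyl-L-cysteine (NAC), a quencher of reactive oxygen species, at 1 g per liter of drinking water. NAC treatment began when heterozygous Mll5+/- parents were mated and lasted through pregnancy and the whole life of the offspring. Each of the 4 groups had 3 arrays of uncultured cells. The labels give neither ages nor the number of mice behind an array. A p-value here reflects the spread among the 3 arrays of a group, pooled over all 4 groups, and these arrays may be technical replicates. The limma fit also draws that spread toward the level of all probe sets. The median within-group SD was 0.85 for the members and 0.23 over all probe sets. Standard errors of widely spread members are therefore smaller than their own arrays alone would give.

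An antibody is built from paired heavy and light chains, and a light chain is of the kappa or the lambda type. Developing B cells join V, D and J segments of the heavy chain locus and then V and J segments of a light chain locus, and transcripts from unrearranged segments can also be made before joining. Ighm encodes the constant region of IgM and Ighg3 that of IgG3, whereas the J chain is a small protein that links IgM or IgA units into polymers and is abundant in antibody-secreting cells. In the mouse reference of assembly GRCm38.p6 the heavy chain genes lie on chromosome 12, the kappa genes on chromosome 6, Iglv1 on chromosome 16 and Jchain on chromosome 5. The reference held 24 of the 25 symbols under the same name, of which 20 are V segments, 1 is a J segment, 2 are constant regions and 1, Jchain, is an ordinary protein-coding gene. The remaining symbol, Igh-VS107, appeared there only as a synonym of a heavy V segment pseudogene.

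Array medians lay between 2.89 and 2.96 on the log2 scale, and the correlation between any pair of arrays over all probe sets lay between 0.951 and 0.973. Limma array weights were lowest for mutant NAC replicate 1 (0.56) and wild-type mock replicate 1 (0.70), against 0.89 to 1.32 for the others, and these arrays are said to stand apart below. Group results are therefore also given without both. The LSK label was read beside 9 measured markers, and the purity of the sort was not tested. Kit, the stem cell factor receptor, had group means of 8.81 to 9.21 and Cd34 of 10.17 to 10.50, while Ly6a, which encodes Sca1, was not analysed here. Flt3 had group means of 7.85 in mutant NAC to 9.04 in wild-type mock, and Slamf1 of 3.03 to 3.61. With NAC in the mutant, 7 of the 9 were lower and 2 higher. There 7 had an unadjusted limma p below 0.05, against 5.02% of all probe sets, and 0 were called.

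Immunoglobulin signals were highest in wild-type mice given NAC and lowest in untreated mutants. Wild-type NAC had the highest group mean for 32 of 37 members, and mutant mock had the lowest for 27 and the highest for 0. The number of members above the 75th percentile of all probe sets on an array, a level of 5.08 to 5.16, was 12, 15 and 11 in wild-type mock replicates 1 to 3. It was 9, 7 and 8 in mutant mock. In wild-type NAC the numbers were 20, 23 and 19, and in mutant NAC they were 14, 11 and 11. The mutant mock counts lay below those of every other array, the wild-type NAC counts lay above all others, and the remaining groups overlapped. Of the 16 heavy chain probe sets, 6, 7 and 6 were above that level in wild-type mock and 5, 4 and 6 in mutant mock, against 10, 11 and 8 in wild-type NAC and 6, 6 and 6 in mutant NAC. For the 18 kappa probe sets the numbers were 4, 6 and 4 in wild-type mock, 4, 3 and 2 in mutant mock, 8, 10 and 9 in wild-type NAC and 6, 5 and 4 in mutant NAC. In total 5 members were above the 75th percentile on all 12 arrays and 13 on none, among them the single lambda probe set. In these bulk samples, fewer cells of a type and less RNA per cell cannot be told apart.

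**Figure D1:**
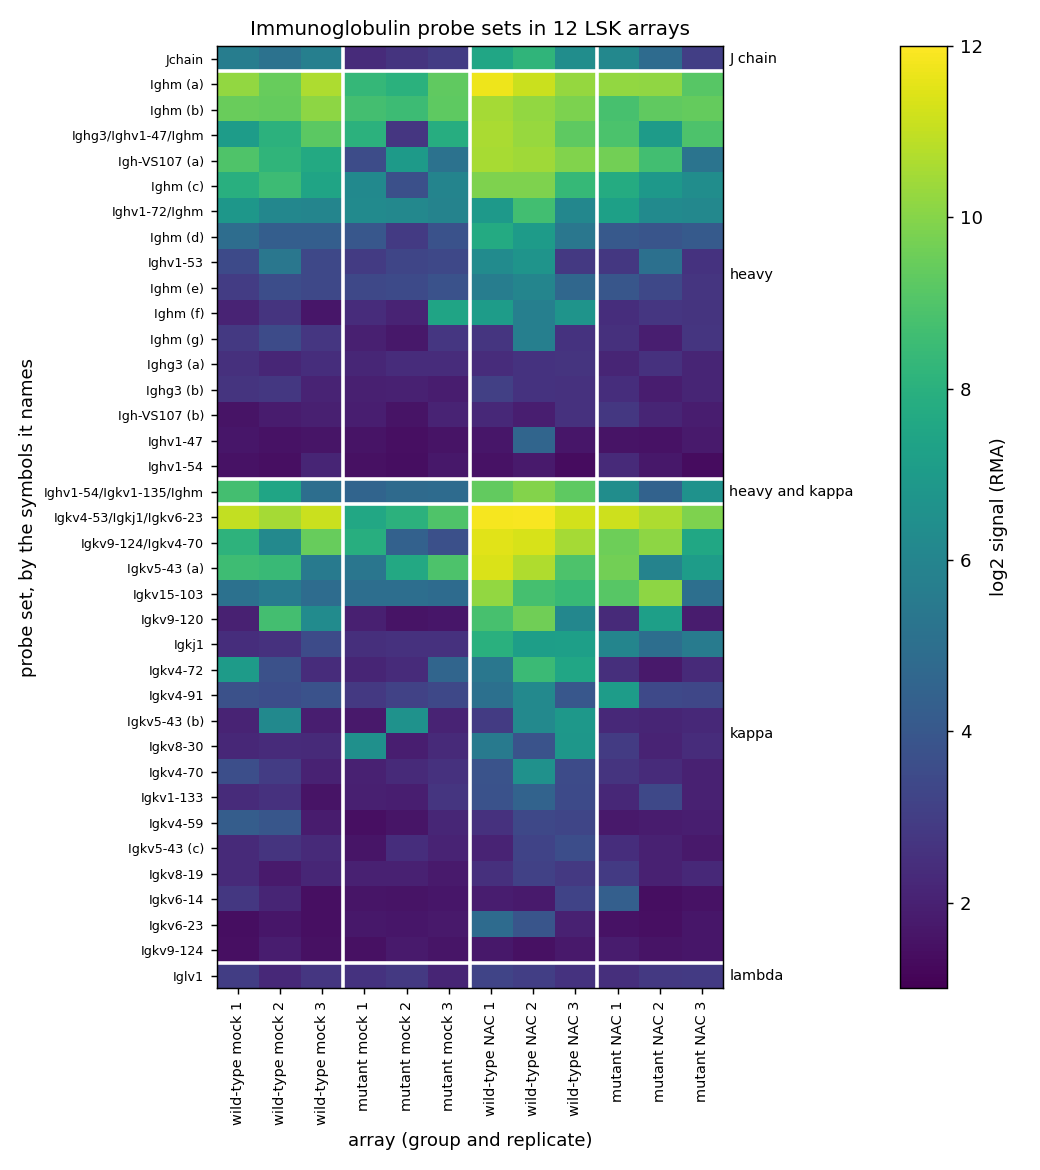
Log2 signal of each of the 37 immunoglobulin probe sets (vertical axis, grouped by chain and ordered by mean) on each of the 12 arrays (horizontal axis, 3 per group), with brighter colours for higher signal. The wild-type NAC columns are brightest, with the highest group mean for 32 of 37 members, and single V segments are bright on some arrays of a group and dark on others.

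Jchain was measured by 1 probe set. Its promoter window is shown because this gene led to the choice of the set and is the member with a promoter sequence in the reference. The window covers chr5:88527848-88528147 of GRCm38.p6 on the minus strand, from RefSeq, and is written in the direction of transcription, with 250 bases before the start site in lower case and the 50 bases from the start site in capitals.
Jchain: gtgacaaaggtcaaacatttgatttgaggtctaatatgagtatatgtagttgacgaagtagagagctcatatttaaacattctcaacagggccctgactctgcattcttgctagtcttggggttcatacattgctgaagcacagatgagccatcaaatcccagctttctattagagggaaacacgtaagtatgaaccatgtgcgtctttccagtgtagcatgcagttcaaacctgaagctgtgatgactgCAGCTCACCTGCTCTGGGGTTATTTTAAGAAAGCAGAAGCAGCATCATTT
The octamer ATTTGCAT, the motif bound by OCT factors in many immunoglobulin promoters, was searched on both strands and had 0 matches in this window. It was present in 570 of 32851 promoter windows of the same length (1.74%).

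The Jchain signals were 5.68, 5.14 and 5.73 in wild-type mock and 2.36, 2.64 and 2.97 in mutant mock. They were 7.50, 8.21 and 6.39 in wild-type NAC and 6.13, 4.84 and 3.04 in mutant NAC. All arrays of each mutant group lay below all arrays of the wild-type group with the same treatment, and within each genotype the NAC arrays lay above the mock arrays. The group means were 5.52 ± 0.33 (SD, n = 3) in wild-type mock, 2.66 ± 0.31 in mutant mock, 7.37 ± 0.92 in wild-type NAC and 4.67 ± 1.55 in mutant NAC. The log2 difference of mutant from wild type was -2.86 in mock and -2.70 in NAC, and that of NAC from mock was 2.01 in the mutant and 1.85 in wild type, each with a standard error (SE) of 0.67. None passed at 0.05, with limma adjusted p-values of 0.593, 0.547, 0.954 and 0.878 in that order. With only the groups compared in the fit, the genotype difference in mock had a limma adjusted p of 0.0983, which also did not pass. Because 2 of the 3 mutant mock arrays were below their own array median, the mock difference is at least 5.88-fold when those signals are set to that median. Fitted differences of other members against signals below the array median are likewise measured against a level near background. Without both arrays that stand apart the values were -2.78, -3.43, 1.28 and 1.93. The NAC difference in the mutant was 1.28 without mutant NAC replicate 1 and 2.83 without mutant NAC replicate 3.

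Ighm was read by more probe sets than any other gene of the set. The array annotation names Ighm alone for 7 probe sets, lettered (a) to (g) by decreasing mean, and the files do not say which part of the transcript each one reads. Ighm (a) read 10.21, 9.45 and 10.65 in wild-type mock, 8.33, 8.04 and 9.30 in mutant mock, 11.70, 11.13 and 10.24 in wild-type NAC and 10.22, 10.17 and 9.16 in mutant NAC. The mutant arrays lay below the wild-type arrays within each treatment, while mutant NAC overlapped wild-type mock. The genotype differences were -1.55 in mock and -1.17 in NAC, and NAC differences were 1.29 in the mutant and 0.92 in wild type (SE 0.47). Ighm (b) read 9.5, 9.39 and 10.15 in wild-type mock, 8.70, 8.56 and 9.28 in mutant mock, 10.51, 10.23 and 9.81 in wild-type NAC and 8.82, 9.33 and 9.39 in mutant NAC. Its groups had the same order between genotypes, with differences of -0.83 and -1.0 (SE 0.27).

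Ighm (c) read 7.93, 8.56 and 7.42 in wild-type mock, 6.22, 3.69 and 5.96 in mutant mock, 9.86, 9.86 and 8.36 in wild-type NAC and 7.77, 6.88 and 6.38 in mutant NAC. The genotype differences were -2.68 in mock and -2.35 in NAC, and those of NAC were 1.72 in the mutant and 1.39 in wild type (SE 0.67). Its mutant arrays were below the wild-type arrays within each treatment, and its mutant NAC arrays were above mutant mock. Ighm (d) read 4.92, 4.28 and 4.30 in wild-type mock, 3.97, 2.87 and 3.77 in mutant mock, 7.72, 7.03 and 5.38 in wild-type NAC and 4.06, 3.89 and 4.13 in mutant NAC. It was the 1 member in which each of the 6 mutant arrays was lower than each of the 6 wild-type arrays, a pattern that 0.225% of all probe sets showed.

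The dimmer Ighm probe sets were high in wild-type NAC or on single arrays. Ighm (e) was near the array median in every group but wild-type NAC, where it read 5.65, 6.02 and 4.68 against 2.96, 3.62 and 3.37 in wild-type mock, 3.37, 3.45 and 3.77 in mutant mock and 3.95, 3.38 and 2.69 in mutant NAC. Ighm (f) read 7.07, 5.73 and 6.71 in wild-type NAC and 2.10, 2.65 and 1.67 in wild-type mock, but in mutant mock it read 2.39, 2.11 and 7.41. The third mutant mock array alone set its difference of 1.83 from wild type in mock, which was 0.11 without that array; the NAC difference in the mutant went from -1.37 to 0.35. Ighm (g) was high on 1 wild-type NAC array, at 2.71, 5.76 and 2.62, and without it the differences in wild-type NAC changed from -1.32 to -0.29 for genotype and from 0.66 to -0.37 for NAC. The Ighg3 probe sets (a) and (b) had means of 1.96 to 2.75 in all groups, below the median level of all probe sets, 2.93.

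Among heavy V segments, Igh-VS107 (a) read 8.95, 8.21 and 7.70 in wild-type mock, 3.56, 6.98 and 5.13 in mutant mock, 10.57, 10.45 and 9.90 in wild-type NAC and 9.66, 8.68 and 5.25 in mutant NAC. Its mutant arrays were below the wild-type arrays in both treatments, and the differences were -3.06 in mock and -2.44 in NAC (SE 1.06). The second probe set of the same symbol, Igh-VS107 (b), stayed between 1.60 and 2.78 on all arrays, so the probe sets of that symbol disagree. The probe set naming Ighg3, Ighv1-47 and Ighm read 7.06, 8.08 and 9.23 in wild-type mock, 8.06, 2.73 and 7.85 in mutant mock, 10.61, 10.32 and 9.27 in wild-type NAC and 8.88, 7.04 and 8.91 in mutant NAC. Ighv1-47 alone was at 4.59 on wild-type NAC replicate 2 and between 1.46 and 1.78 elsewhere. Ighv1-53 read 6.32, 6.70 and 2.81 in wild-type NAC, so its arrays there spanned a wider range than its group means, which lay between 3.20 and 5.28. The probe set naming Ighv1-72 and Ighm read 6.93, 8.69 and 6.11 in wild-type NAC and between 5.92 and 7.26 elsewhere.

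The probe set naming Ighv1-54, Igkv1-135 and Ighm crosses heavy and kappa genes. It read 8.71, 7.46 and 4.97 in wild-type mock, 4.56, 4.79 and 4.83 in mutant mock, 9.34, 9.95 and 9.28 in wild-type NAC and 6.39, 4.48 and 6.59 in mutant NAC. Its mutant arrays were each lower than the wild-type arrays of the same treatment, by -2.32 in mock and -3.70 in NAC (SE 0.81).

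The kappa chain held the 1 call. Its probe set with the highest mean signal was the one naming Igkv4-53, Igkj1 and Igkv6-23, at 10.97, 10.51 and 11.13 in wild-type mock, 7.58, 8.08 and 8.95 in mutant mock, 11.83, 11.90 and 11.24 in wild-type NAC and 11.16, 10.63 and 9.89 in mutant NAC. The 3 mutant mock arrays lay below the other 9. The differences were -2.67 for genotype in mock and -1.10 in NAC, and 2.36 for NAC in the mutant and 0.79 in wild type (SE 0.39). The mock value had the smallest adjusted p of any member in that comparison, 0.191 by limma.

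Igkj1, the first joining segment of the kappa locus, had its own probe set. It read 2.43, 2.55 and 3.52 in wild-type mock, 2.47, 2.57 and 2.56 in mutant mock, 7.98, 7.17 and 7.21 in wild-type NAC and 5.99, 4.99 and 5.57 in mutant NAC. The mock groups overlapped near the array median, and all NAC arrays of both genotypes lay above every mock array. With NAC, this probe set rose in wild type by 4.62 (SE 0.33, limma adjusted p = 0.00184), at least 20.3-fold with the mock signals bounded at their array medians. In the mutant the NAC difference was 2.98, with a limma adjusted p of 0.129. The call in wild type was lost when only the groups compared entered the fit (adjusted p 0.0818), and the other alternatives gave 6e-05 to 0.0176. The interaction for Igkj1 was -1.64 (SE 0.47, limma adjusted p 0.999). The probe set naming Igkv4-53, Igkj1 and Igkv6-23 was already at 10.51 to 11.13 in wild-type mock. With NAC it differed there by 0.79 (SE 0.39, limma adjusted p 0.92). The probe sets naming Igkj1 thus differ in the size of the wild-type change. In each of them all NAC arrays lay above all mock arrays within each genotype. Of all probe sets, 5.2% did so in wild type and 4.88% in the mutant. The call holds only for the 1 that names Igkj1 alone.

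Several other kappa V segments were high on some arrays of a group and low on others. The probe set naming Igkv9-124 and Igkv4-70 read 8.11, 6.16 and 9.43 in wild-type mock, 7.89, 4.41 and 3.68 in mutant mock, 11.50, 11.34 and 10.50 in wild-type NAC and 9.59, 10.13 and 7.55 in mutant NAC. Igkv15-103 read 5.12, 5.56 and 4.88 in wild-type mock, 4.97, 4.96 and 4.85 in mutant mock, 10.21, 8.75 and 8.41 in wild-type NAC and 9.13, 10.11 and 5.02 in mutant NAC. The third mutant NAC array was thus at the mock level while the other two were in the range of wild-type NAC. Igkv9-120 read 2.02, 8.73 and 6.32 in wild-type mock, 1.98, 1.60 and 1.68 in mutant mock, 8.78, 9.60 and 6.11 in wild-type NAC and 2.33, 7.22 and 1.82 in mutant NAC. It was below the array median on all mutant mock arrays, as it was on 2 of the 3 mutant NAC arrays. The genotype difference, -3.94 in mock and -4.37 in NAC as fitted (SE 1.74), is at least 6.7-fold and 13.9-fold with those signals bounded. Igkv4-72 read 7.05, 3.74 and 2.41 in wild-type mock, 2.13, 2.36 and 4.60 in mutant mock, 5.35, 8.51 and 7.51 in wild-type NAC and 2.49, 1.77 and 2.31 in mutant NAC. All 3 mutant NAC arrays were below their array median, so its genotype difference in NAC, -4.93 as fitted (SE 1.15), is at least 18.3-fold.

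Igkv5-43 (a), the brightest of 3 probe sets of its symbol, read 8.59, 8.45 and 5.55 in wild-type mock, 5.33, 7.65 and 8.92 in mutant mock, 11.39, 10.68 and 8.93 in wild-type NAC and 9.67, 5.93 and 7.08 in mutant NAC. The mock genotypes overlapped, with a difference of -0.23 (SE 1.21). Igkv8-30 was at 6.54 on mutant mock replicate 1 and between 1.92 and 2.90 on the other 8 arrays outside wild-type NAC, where it read 5.47, 3.82 and 6.82. Iglv1, the lambda probe set, read 3.0, 2.27 and 2.75 in wild-type mock, 2.60, 2.81 and 2.13 in mutant mock, 3.24, 3.02 and 2.61 in wild-type NAC and 2.5, 2.82 and 2.85 in mutant NAC. Its groups overlapped in every comparison, with differences of -0.16, -0.23, 0.21 and 0.28 (SE 0.24). No probe set for Igkc or for a lambda constant region was analysed here.

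**Figure D2:**
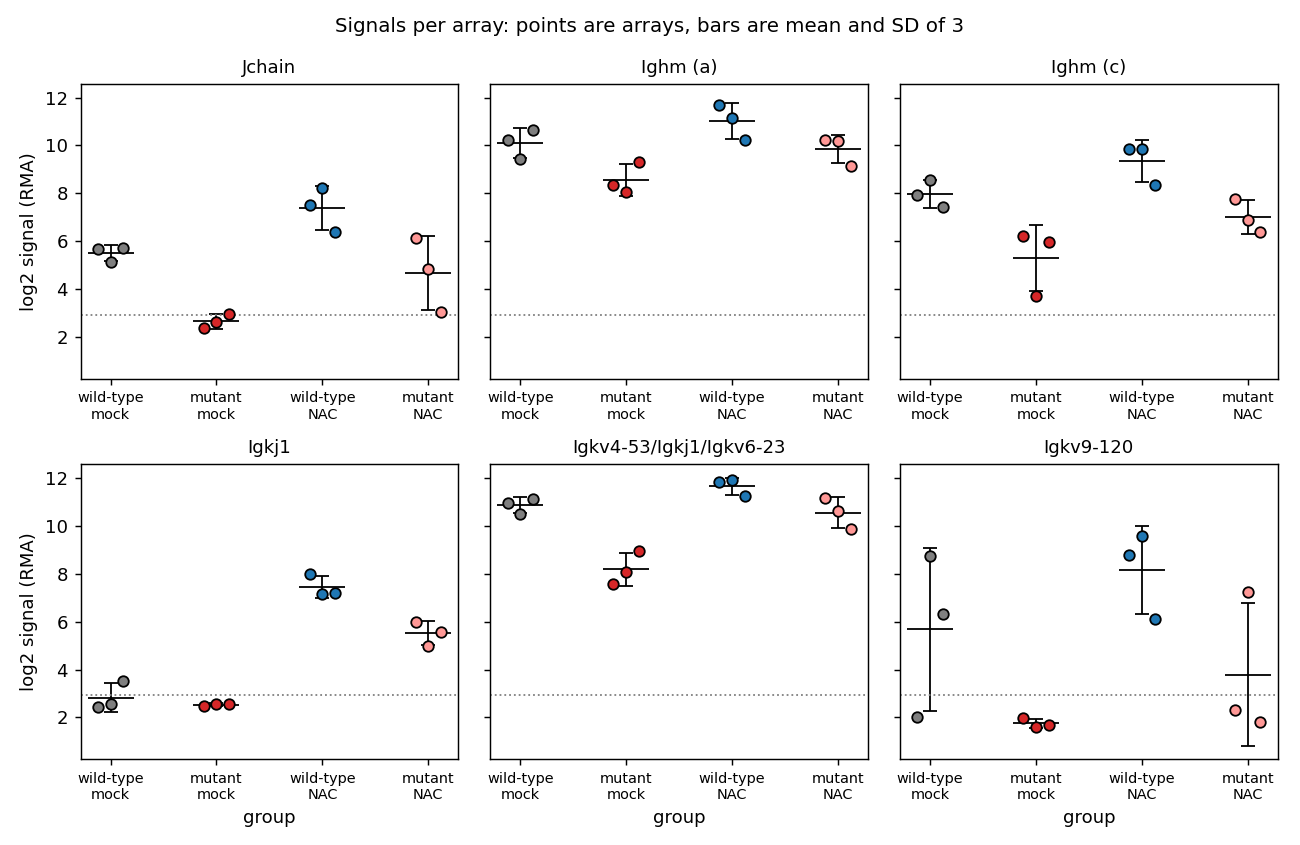
Log2 signal (vertical axis) of 6 immunoglobulin probe sets in the 4 groups (horizontal axis), with 1 point per array, a horizontal bar for the mean and error bars for the SD of 3 arrays; the dotted line is the median level of all probe sets, 2.93. Jchain and Igkv4-53/Igkj1/Igkv6-23 are lowest in mutant mock, Igkj1 is high in both NAC groups, and Igkv9-120 ranges from 2.02 to 8.73 within wild-type mock.

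In untreated cells, 29 of 37 members were lower in the mutant, with a median log2 difference of -0.51 against 0.0 over all probe sets. The heavy chain had a median of -0.69 (13 of 16 lower) and the kappa chain of -0.34 (13 of 18 lower). Every mutant array was lower than every wild-type array for 12 members (Jchain, 7 heavy, 3 kappa and the mixed probe set), where 5.61% of all probe sets did so. By limma, 0 members were called, 11 had an unadjusted p below 0.05, all lower in the mutant, and 0.00484% of all probe sets were called. At the unadjusted threshold 5.87% of all probe sets passed. Without both arrays that stand apart the median was -0.44. The count is set beside the background only as a description, since the set was chosen by this contrast.

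In NAC-treated cells, 33 of 37 members were lower in the mutant, with a median of -1.38. The heavy chain median was -1.25 (14 of 16 lower) and the kappa median was -1.66 (16 of 18 lower). Every mutant array was lower than every wild-type array for 21 members (Jchain, 9 heavy, 10 kappa and the mixed probe set), where 6.02% of all probe sets did so. By limma, 0 members were called and 21 had an unadjusted p below 0.05, with a smallest adjusted p of 0.424; 0.0121% of all probe sets were called and 6.65% had an unadjusted p below 0.05. Without both arrays that stand apart the median was -1.56. Over both treatments, the mutant was lower for 34 members with a median of -1.04. There, limma called 0 members, 20 had an unadjusted p below 0.05, and the shares of all probe sets were 0.00484% called and 8.04% at the unadjusted threshold.

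NAC was accompanied by higher immunoglobulin signals in wild type. The median difference from mock was 1.39, with 35 of 37 members higher (15 of 16 heavy, median 0.98, and 17 of 18 kappa, median 1.82). All NAC arrays lay above all mock arrays for 17 members (Jchain, 5 heavy, 10 kappa and the mixed probe set), where 5.2% of all probe sets did so. Igkj1 was the 1 member called by limma, while 15 had an unadjusted p below 0.05. Of all probe sets, 0.0121% were called and 5.51% had an unadjusted p below 0.05. The median was 1.23 without both arrays that stand apart and 0.87 without wild-type NAC replicate 2.

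In the mutant, the median difference of NAC from mock was 0.33, with 30 of 37 members higher (13 of 16 heavy and 14 of 18 kappa, each with a median of 0.31). NAC arrays lay above mock arrays for 5 members, which were Jchain, Ighm (c), Igkj1, Igkv15-103 and the probe set naming Igkv4-53, Igkj1 and Igkv6-23, where 4.88% of all probe sets did so. By limma, 0 members were called, 8 had an unadjusted p below 0.05, all higher with NAC, and of all probe sets 0.0% were called and 5.02% had an unadjusted p below 0.05. The median rested on single arrays. It was 0.17 without both arrays that stand apart and 0.17 without mutant NAC replicate 1 alone. With mutant mock replicate 3 left out it was 0.52, and with mutant NAC replicate 3 left out 0.50.

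The interaction, which is the NAC difference in the mutant minus that in wild type, had a median of -0.43, with 25 members lower and 11 higher. Limma called 0 members, 8 had an unadjusted p below 0.05 (7 lower and 1 higher), and the smallest adjusted p was 0.945. Of all probe sets, 0.0% were called and 4.36% passed at the unadjusted threshold. The median was -0.13 without wild-type NAC replicate 2 and -0.63 without both arrays that stand apart. The comparisons share arrays, since the genotype difference in mock and the NAC difference in the mutant both use mutant mock, and the genotype difference in NAC and the NAC difference in wild type both use wild-type NAC.

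**Figure D3:**
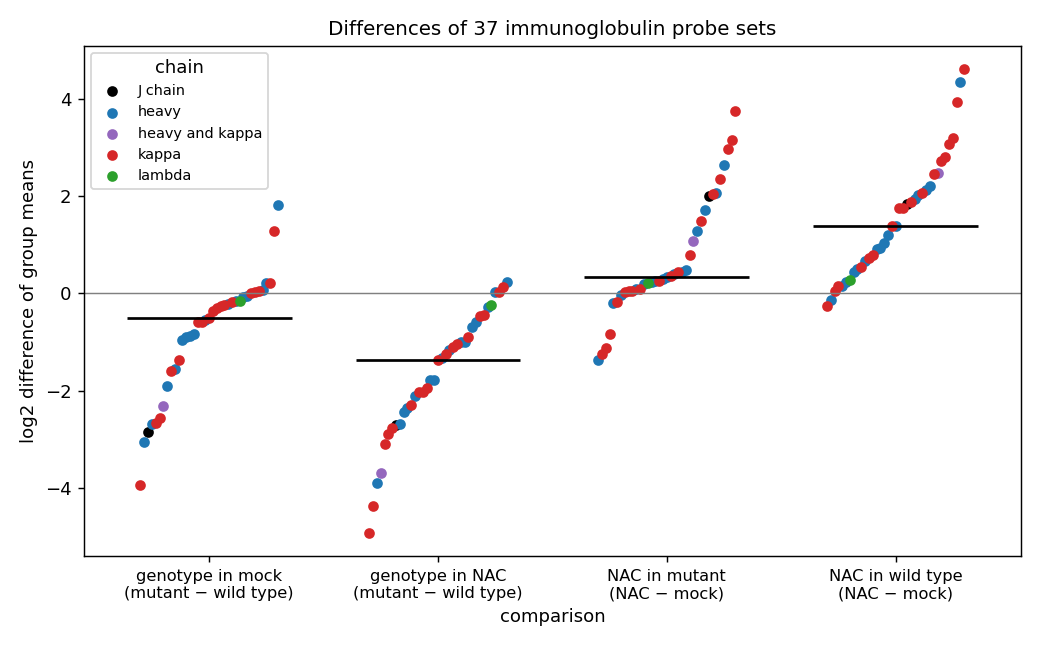
Log2 difference of group means (vertical axis) for each of the 37 probe sets in the 4 comparisons (horizontal axis), ordered by size within a comparison and coloured by chain, with a horizontal bar at the median of the members. The medians are -0.51, -1.38, 0.33 and 1.39 from left to right, and the grey line marks 0.

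The members varied widely among arrays of one group. The median pooled within-group SD was 0.85 for the members, 0.73 for heavy and 0.96 for kappa, against 0.23 over all probe sets, and 13 of 37 members (35.1%) had an SD over 1 against 2.3% of all probe sets. The largest was 2.44, for Igkv9-120. Signals of a member ranged over more than 3 log2 units between the 3 arrays of a group for 6 members in wild-type mock, 7 in mutant mock, 7 in wild-type NAC and 6 in mutant NAC, or 16.2%, 18.9%, 18.9% and 16.2% of members. Over all probe sets the shares were 0.706%, 0.426%, 0.438% and 0.689%. The kappa chain gave 5, 4, 5 and 4 of these members and the heavy chain 0, 3, 2 and 1, in the same order of groups.

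Across the 12 arrays, the Jchain signal had a Pearson r above 0.5 with 28 of the other 36 members, with a median of 0.67, and this r was 0.32 after group means were removed. The highest were the probe set naming Igkv4-53, Igkj1 and Igkv6-23 (0.93), Igh-VS107 (a) (0.92), Ighm (a) (0.92) and Ighm (c) (0.90). Over 22158 other genes the median was -0.01 and 4.99% were above 0.5. These points share arrays and group means and are given as a description. The 10 other genes most like Jchain were Olfr508, Zfp353-ps, Lyzl1, Tff3, St6gal1, Lce1k, Mirt1, Ndufa3, Ttc39d and Esp8, with r of 0.83 to 0.88. Their signals ranged over 0.34 to 1.51 log2 units. Of these genes, 7 had a mean below the median level of all probe sets, 2.93.

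Markers of cells that carry antibody genes were read beside these signals. Of 16 B lineage markers, 14 were measured and 8 had a mean below the median level. The list mean ranged over 3.49 to 3.70 in wild-type mock, 3.32 to 3.54 in mutant mock, 3.57 to 3.79 in wild-type NAC and 3.26 to 3.49 in mutant NAC. Between genotypes, 12 were lower in the mutant in mock (median -0.11) and 12 in NAC (median -0.17). With NAC, 9 were lower in each genotype, with medians of -0.12 in the mutant and -0.02 in wild type, whereas the immunoglobulin medians were above 0 there. Ms4a1, which encodes the B cell surface protein CD20, was at 1.76 to 1.89 in all groups, and Pax5, the B cell commitment factor, at 3.08 to 3.28. Other genes of the list were higher, with group means of 3.95 to 4.60 for Cd79a, 6.38 to 6.57 for Cd79b and 7.38 to 7.79 for Cd37. Blnk, an adaptor in B cell receptor signalling, was 5.15 ± 0.36 (SD, n = 3) in wild-type NAC and 3.72 ± 0.18 in mutant NAC, a difference of -1.43 (SE 0.20, limma adjusted p = 0.127). Pou2af1, a coactivator at octamer sites, differed by -1.10 there (SE 0.39), and Blk, a B cell kinase, by 0.41 in the opposite direction (SE 0.16). Blk had a mean of 2.86 over the 12 arrays, below the median level.

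Of 20 genes of plasma cells and antibody secretion, 19 were measured and 4 had a mean below the median level. List means were 5.62 to 6.11 over all arrays. The median difference of NAC from mock was 0.18 in the mutant (17 higher) and 0.17 in wild type (13 higher). The median genotype difference was -0.04 in mock (14 lower and 5 higher) and -0.06 in NAC (12 lower and 7 higher). Prdm1, a master regulator of plasma cells, was at 2.67 to 2.77 in all groups, Tnfrsf17, the receptor BCMA, at 2.51 to 2.92, and Xbp1, a driver of secretory capacity, at 6.40 to 6.51. Irf4 had a mean of 2.80 over the 12 arrays, below the median level. In wild type with NAC, Irf4 differed by 0.78 (SE 0.25), Sdf2l1 by 0.66 (SE 0.36) and Fkbp11 by 0.46 (SE 0.38). These differences were the 3 largest there, while 6 of the 19 were lower, among them Sdc1, the plasma cell surface proteoglycan, at -0.26 (SE 0.15). In mock, the genotype difference of Sdc1 was -0.74 (SE 0.15, limma adjusted p 0.534), the largest of the list there. Its mutant mock arrays read 5.59 to 5.96 and its wild-type mock arrays 6.42 to 6.64. Of 9 genes of recombination and early lymphoid cells, 7 were measured and all 7 were lower in the mutant over both treatments, with a median of -0.82. Dntt, which adds nucleotides at segment joints, differed by -1.11 (SE 0.23), Il7r, the receptor for interleukin 7, by -0.95 (SE 0.31) and Rag2, a subunit of the recombinase, by -0.94 (SE 0.35). List means there were 4.93 to 5.38 in wild-type mock, 4.02 to 4.69 in mutant mock, 5.09 to 5.21 in wild-type NAC and 4.13 to 4.64 in mutant NAC.

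Other lists were read for cells a sort could hold. Plasmacytoid dendritic cell genes, 8 of 8 measured, had list means of 5.22 to 5.48 in wild-type mock, 4.87 to 5.09 in mutant mock, 5.30 to 5.89 in wild-type NAC and 5.19 to 5.30 in mutant NAC, with medians of -0.26, -0.14, 0.21 and 0.17 for the comparisons in the order used above. The 7 neutrophil genes, 3 of them below the median level, had list means of 6.13 to 6.60, 5.17 to 6.16, 6.53 to 6.61 and 5.96 to 6.49. Their medians were -0.18, -0.34, 0.39 and 0.34 for the comparisons in the same order. The largest genotype difference of the list in mock was that of S100a8, at 7.50 ± 1.20 in mutant mock and 9.11 ± 0.26 in wild-type mock. T cell (7 of 9 measured, 6 below the median level) and NK cell genes (5, 4 below) had medians between -0.12 and 0.15 in those comparisons. Monocyte genes (4 of 5 measured) had a median of 0.68 with NAC in wild type, erythroid genes (2 of 6) of 0.51 there and 0.96 in the mutant, and LSK genes (9 of 10) of -0.26 and -0.38. Limma called 0 of the 82 measured genes of these 10 lists in any of the 6 comparisons. The part of any of these cell types in the immunoglobulin signals was not tested.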

How the data were processed

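Biotin-labelled total RNA of sorted LSK cells was read on Affymetrix arrays. The values deposited by the authors were read as log2, and the submitters' processing notes name RMA and Affymetrix Power Tools. Software versions and the build behind the array annotation are not given in the sources used. Since the log base is unstated, base 2 was inferred from values of 0.74 to 13.23. RMA forces a common distribution on all arrays, so differences are relative to the other probe sets. RefSeq tables of GRCm38.p6 served for gene names and for the promoter window.

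All 41345 probe sets on the 12 arrays were fitted by lmFit and eBayes of limma 3.58.1 (R 4.3.3) with a mean for each group, Benjamini-Hochberg adjustment within each comparison and a threshold of 0.05. The script was tested on simulated data with known differences. V segments are closely related, so probe sets may share signal between genes, and those naming several genes were kept whole. Fold bounds raise signals below an array's median to that median. Named were Jchain, every constant-region probe set, the 3 brightest other probe sets of each chain, the 2 largest differences per comparison, 3 genes per marker list in a comparison described and the 10 genes most like Jchain. Some V segments and the markers Ms4a1, Pax5, Cd79a, Cd79b, Cd37, Prdm1, Tnfrsf17, Xbp1, Sdc1, S100a8 and those of LSK cells were named outside this rule, after their values were seen. Some lists are given by counts alone. The members and lists were chosen with earlier results of these arrays known. Alternatives covered the samples, probe sets, weights, normalization, centring, variance prior, threshold, replicate block and left-out arrays. Replicate numbers were not taken as pairs, since of 18 same-numbered pairs, 0 had a correlation of deviations over 0.1.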

Additional observations from a re-analysis of the deposited data

Results flagged for a closer look

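Igkv6-23, measured by its own probe set, is listed because its NAC arrays lay above mock in wild type and below mock in the mutant. It read 1.40, 1.67 and 1.46 in wild-type mock and 4.83, 3.88 and 2.03 in wild-type NAC, so that all NAC arrays lay above all mock arrays. In the mutant it read 1.72, 1.67 and 1.77 in mock and 1.54, 1.46 and 1.65 with NAC, so that all NAC arrays lay below all mock arrays. Every mutant signal was under the median level of all probe sets, 2.93, and the difference was -0.17 (SE 0.52). Over all probe sets, 5.2% had NAC arrays above mock in wild type, and 2025 of 41345 had them below mock in the mutant. The interaction was -2.24 (SE 0.73) and did not pass by limma, with an adjusted p of 0.999. Since 3 of the 4 groups lay below the array median, these are fitted values against a level near background, and with the signals bounded at that median NAC was at least 1.58-fold above mock in wild type. No fold bound can be given in the mutant, where both groups lay below that median. Without wild-type NAC replicate 3, its lowest array in that group, the interaction was -3.02 with a limma adjusted p of 0.0355. In that fit 4 of 41345 probe sets were called for the interaction. The member was singled out for its pattern, so this value is a description.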

How the results depend on the processing

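Of 1048 values recomputed under alternatives, 1021 stayed within the spread or 1.5 times the count, 27 moved, and no called value changed sign. Among members' own values, called or not, the sign changed under at least 1 alternative for 10 members in the genotype difference in mock and 7 in NAC. It did so for 14 in the NAC difference in the mutant and 5 in wild type, among them Ighm (f) and Ighm (g), whose values are given above. The interaction changed sign for 19 of the 37 members, and the genotype difference over both treatments for 5. With probe sets above the median level alone, medians over members were -0.87 for genotype in mock, -2.29 in NAC, 1.09 for NAC in the mutant, 2.02 in wild type, -1.50 over both treatments and -0.78 for the interaction; this setting drops the dim members. With annotated probe sets alone, limma called 1 member for NAC in the mutant, Igkj1 (adjusted p 0.00954), which was 1 of 25335 probe sets. With only the groups compared, it called 0 members for NAC in wild type and 1 of 41345 probe sets. Leaving out each array in turn, the calls ranged from 0 to 0 for genotype in mock, 0 to 2 in NAC, 0 to 1 for NAC in the mutant, 1 to 3 in wild type, 0 to 1 over both treatments and 0 to 1 for the interaction. Without wild-type NAC replicate 3, Ighm (d) and Igkv6-23 were added for genotype in NAC and NAC in wild type. Ighm (d) was also added over both treatments and Igkv6-23 for the interaction. There 12, 11, 8 and 4 of 41345 probe sets were called, against 5, 5, 2 and 0 with all arrays. Ighm (f) was added for genotype in NAC (7 probe sets called) and NAC in wild type (6) without mutant mock replicate 3. Igkv15-103 was added for NAC in wild type (5) without mutant NAC replicate 3. Without wild-type mock replicate 3, Igkv4-59 was added over both treatments (3) and Igkj1 for NAC in the mutant (1). With each array left out in turn, the medians ranged from -0.69 to -0.42 for genotype in mock, -1.86 to -1.12 in NAC and 0.17 to 0.52 for NAC in the mutant. They ranged from 0.87 to 1.93 for NAC in wild type, -1.14 to -0.90 over both treatments and -0.57 to -0.13 for the interaction. The cause of these changes was not tested. With the replicate block, limma called 1 member for NAC in wild type (Igkj1, adjusted p 0.0126), among 2 of 41345 probe sets. In the other comparisons 0 members were called, and the replicate numbers mark no pairs. With 3 arrays a group and 8 residual degrees of freedom, the number of arrays limits the precision, and 14 of 37 members have a mean at or below the median level, where differences are compressed.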
